A study of Homo sapiens with 24 samples.

Results

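MITF, TFEB and TFE3 are the members of the MiT/TFE family of transcription factors that were compared here, taken as the rows of the expression table that carry those gene names. They are 3 of the 36481 genes in the table. MITF (ENSG00000187098.14) was annotated on GRCh38 at chr3:69739435-69968337, TFEB (ENSG00000112561.17) at chr6:41683978-41736259 and TFE3 (ENSG00000068323.16) at chrX:49028726-49043486. TFE3 and TFEB were listed in all 24 libraries and MITF in 23. The libraries came from 2 triple-negative breast cancer lines, Hs578T and SKBR7, which are established lines, so every group of a line is the same line under another treatment. Cells were treated for 6 h with 0.1% DMSO, with 3.16 µM lapatinib (an inhibitor of the receptor kinases EGFR and HER2), with 1 µM PHA-767491 (an inhibitor of the kinases cdc7 and CDK9), or with both inhibitors at these doses, called co-treatment here, with 3 libraries in each of the 8 groups. The study pointed to MITF as a possible regulator, and the question here was how MITF itself behaved beside its better expressed relatives. The values are log2 normalised expression, scaled so that the libraries share 1 distribution, so each is relative to the other genes of its library, and fewer cells of a type and less RNA per cell cannot be told apart.

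As background, the MiT/TFE factors share a basic helix-loop-helix leucine zipper and bind DNA as dimers, with themselves or with each other, at short E-box sequences. MITF is known as the central regulator of melanocytes, where it drives pigment and survival genes. TFEB and TFE3 are known for turning on lysosomal and autophagy genes, a set called the CLEAR network. When amino acids are plentiful, the kinase complex mTORC1 phosphorylates them at the lysosome with the help of Rag GTPases and FLCN, and 14-3-3 proteins then hold them in the cytoplasm. An mRNA level therefore says nothing on how much of a factor is in the nucleus.

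The sequences below show the DNA letters these factors are known to read and the start of the MITF gene that pigment cells use. They are RefSeq promoters of GRCh38.p14, short windows that end just after a transcription start. MITF has several starts, and the gene-level values do not separate the transcripts that begin at each. The start used in melanocytes lies at the downstream end of the gene, and its promoter (chr3:69936342-69936641, plus strand) holds 1 copy of TGACGTCA, the sequence bound by CREB factors, in capitals here. That sequence was found in 1.85% of all promoters in the table, and in none of the other promoters of MITF, TFEB or TFE3.
MITF, melanocyte start: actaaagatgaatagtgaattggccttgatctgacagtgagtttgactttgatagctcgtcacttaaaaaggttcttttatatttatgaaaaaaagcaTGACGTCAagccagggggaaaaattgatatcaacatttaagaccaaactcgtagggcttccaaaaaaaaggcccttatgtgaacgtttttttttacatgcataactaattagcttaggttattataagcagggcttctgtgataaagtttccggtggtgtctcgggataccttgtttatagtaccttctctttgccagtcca
The E-box CACGTG reads the same on both strands. It was in no promoter of MITF, TFEB or TFE3, and it was in at least 1 promoter of 8.77% of all genes in the RefSeq table and of 13.6% of the genes listed in all 24 libraries. Among lysosomal hydrolase genes 8 of the 24 matched genes had it (33.3%), among lysosomal membrane genes 6 of 14 (42.9%), among V-ATPase genes 4 of 15 (26.7%), among autophagy genes 3 of 20 (15.0%), and among genes of mTORC1 and its lysosomal partners 7 of 20 (35.0%). These shares are a description of the letters in these windows and do not show that a factor binds there. Of the genes the study linked to MITF 1 of 5 matched genes had it (20.0%), and of MITF targets outside pigment genes 5 of 14 (35.7%). No windows are printed for those. The windows of 40 bases below come from genes of the lysosomal, autophagy and mTORC1 lists that are named further on and held the motif. The capitals mark CACGTG.
CTSF, chr11:66568707-66568746, minus strand: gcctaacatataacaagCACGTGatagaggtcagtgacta
CTSF, chr11:66568635-66568674, minus strand: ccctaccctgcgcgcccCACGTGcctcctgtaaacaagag
MCOLN1, chr19:7522566-7522605, plus strand: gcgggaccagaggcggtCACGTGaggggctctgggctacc
MCOLN1, chr19:7522593-7522632, plus strand: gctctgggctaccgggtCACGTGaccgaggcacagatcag
ATP6V0E2, chr7:149872879-149872918, plus strand: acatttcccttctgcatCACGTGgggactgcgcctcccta
ATG14, chr14:55411829-55411868, minus strand: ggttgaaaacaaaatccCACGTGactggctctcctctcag
RRAGB, chrX:55717617-55717656, plus strand: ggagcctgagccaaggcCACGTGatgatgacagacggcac
RRAGB, chrX:55717707-55717746, plus strand: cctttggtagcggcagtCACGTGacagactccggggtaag
RRAGB, chrX:55717739-55717778, plus strand: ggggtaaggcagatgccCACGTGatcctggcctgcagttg

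Total counts per library were not analysed here, so depth is unknown, and the number of genes listed is given instead. Of the 24 libraries, 18 listed 20287 to 23282 genes, and 6 stood apart. Hs578T DMSO I listed 9967 genes, Hs578T DMSO II 17137, Hs578T PHA-767491 I 18090, SKBR7 lapatinib II 18021 and SKBR7 co-treatment I 16232. Hs578T PHA-767491 III listed 23320 genes, but also 470 of the 489 genes that otherwise belonged to SKBR7, and Hs578T DMSO II listed 361 of them. The epithelial keratin gene KRT8 was at 9.71 and 9.47 in those libraries, against a median of 4.34 over the 12 Hs578T libraries and 10.8 to 11.9 in SKBR7. Both Hs578T libraries therefore go against their label in part, and results that rest on any of these 6 libraries are also given without them, the remaining 18 being quantile normalised anew over 12200 genes, which is called ranked anew below. That leaves 1 DMSO and 1 PHA-767491 library in Hs578T, so ranked-anew differences from those groups rest on 1 library. VIM, a mesenchymal marker, was at a median of 11.9 in Hs578T and 9.24 in SKBR7. Not every epithelial marker went with KRT8. CDH1 (medians of -0.13 in Hs578T and 5.18 in SKBR7) and KRT18 (6.94 and 10.5) did. ESRP1 went the other way (2.96 and -2.96), and EPCAM was low in both lines (-2.11 and -1.89). Cells were treated in triplicate per the methods, which do not say that replicates came from separate experiments. The p-values therefore measure spread between these libraries, which may be technical. That spread is moderated, as the fit draws the spread of each gene towards that of genes at a like level. An SE can thus be wider or narrower than the values of the gene itself would give.

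TFE3 was by far the most abundant member in both lines. In Hs578T it stood at 5.17, 6.09 and 5.58 in DMSO, 5.51, 5.55 and 5.74 in lapatinib, 4.72, 5.44 and 6.07 in PHA-767491 and 5.74, 5.79 and 5.62 in co-treatment. The groups overlapped, and the lowest and highest values came from libraries that stood apart. In SKBR7 it stood at 7.05, 6.98 and 7.12 in DMSO, 6.70, 6.94 and 7.10 in lapatinib, 6.53, 6.59 and 6.54 in PHA-767491 and 5.98, 6.27 and 6.39 in co-treatment. All 3 co-treated SKBR7 libraries were below every other SKBR7 library. How many of all genes did so was not counted, and the lowest value came from co-treatment I, which stood apart.
TFEB, the relative best known from the lysosomal stress response, was lower and varied more. In Hs578T it was at -2.01, 0.63 and 2.86 in DMSO, 2.98, 2.34 and 3.28 in lapatinib, 0.61, 2.84 and 2.75 in PHA-767491 and 2.52, 2.98 and 2.36 in co-treatment. The 3 values under 1 all came from libraries with few genes listed. In SKBR7 it was at 3.88, 4.04 and 3.75 in DMSO, 3.05, 2.32 and 3.91 in lapatinib, 2.90, 3.31 and 3.24 in PHA-767491 and 0.12, 3.30 and 3.41 in co-treatment. SKBR7 co-treatment I was the low value there.
MITF differed most between the lines. In Hs578T it was not listed in DMSO I and stood at 1.00 and 0.65 in the other DMSO libraries, at 1.06, 0.95 and 1.35 in lapatinib, at -0.11, 1.06 and 3.34 in PHA-767491 and at -0.27, -0.06 and -0.46 in co-treatment. The value of 3.34 came from PHA-767491 III, the library that also listed SKBR7 genes. In SKBR7 MITF was at 4.24, 4.41 and 4.28 in DMSO, 4.38, 2.41 and 4.48 in lapatinib, 3.61, 4.17 and 3.27 in PHA-767491 and 0.77, 3.45 and 3.62 in co-treatment. TFEC, the remaining relative, was listed in 5 Hs578T and 11 SKBR7 libraries and did not exceed 0.33.

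**Figure D1:**
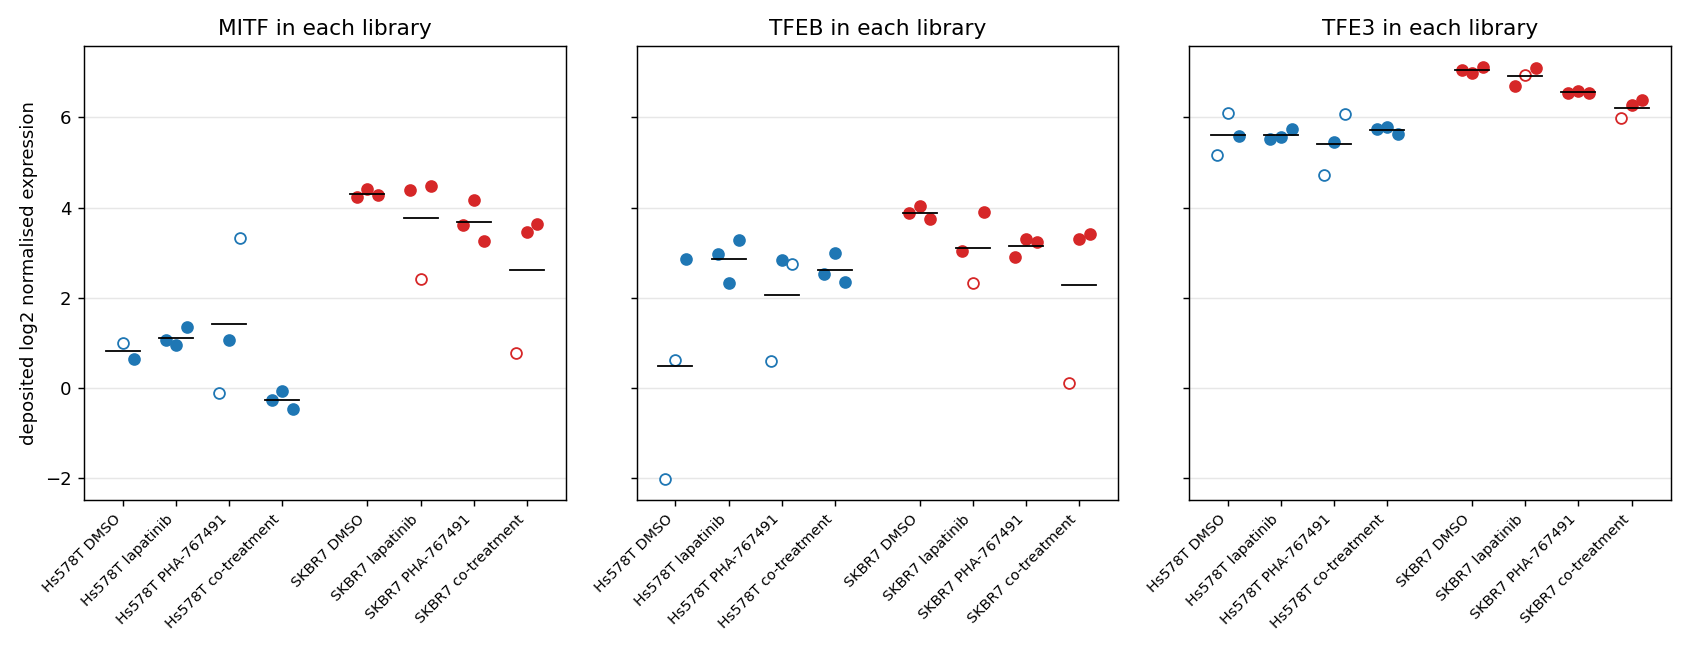
Deposited log2 normalised expression (y axis) of MITF, TFEB and TFE3 in each library, by line and treatment (x axis), blue for Hs578T and red for SKBR7. Open circles are the 6 libraries that stood apart, lines are group means, and TFE3 lies above the other 2 genes in every library, from 4.72 to 7.12.

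Between the lines, MITF and TFE3 were lower in Hs578T. In lapatinib, the treatment in which no Hs578T library stood apart, MITF was 2.64 lower on the log2 scale in Hs578T than in SKBR7 (SE 0.82, n = 3 per line, adjusted p = 0.0354 by limma), and TFE3 was 1.31 lower (SE 0.32, n = 3, adjusted p = 0.0074 by limma). Of the 21316 genes tested, 4.95% were called lower in Hs578T in that comparison. The MITF call was lost without any of the 3 Hs578T lapatinib libraries or without SKBR7 lapatinib I or III, with adjusted p up to 0.133 by limma, and the difference stayed between -3.31 and -2.27. Ranked anew, the MITF difference was -3.13 (adjusted p = 2.63e-10 by limma) and that of TFE3 -1.28 (adjusted p = 1.03e-10 by limma). Across the settings tried from 356 to 4543 genes were called lower in Hs578T. TFEB differed by -0.23 (SE 0.95, adjusted p = 0.929 by limma), a difference too loosely measured to place the lines, and by -0.58 ranked anew (SE 0.19, adjusted p = 0.0125 by limma).

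A difference between members within 1 library does not move when the whole library shifts up or down, so MITF was also set against its relatives library by library. It can still move if the scaling spreads the low values of a library more than its high values, which was not tested. Levels were divided by the summed exon length of each gene in GENCODE 44 (7.42 kb for MITF, 6.72 kb for TFEB and 4.21 kb for TFE3), which counts every annotated exon and may be longer than the transcripts the cells make. Per kilobase, TFE3 held 84.95% to 97.45% of the summed linear level of the 3 genes in the 23 libraries that list all of them. MITF held 0.78% to 2.41% in the 8 Hs578T libraries that did not stand apart, and 5.24% to 9.80% in the 10 such SKBR7 libraries. Its share in Hs578T PHA-767491 III was 7.42%, inside the SKBR7 range, and its shares in SKBR7 lapatinib II and co-treatment I were 2.35% and 1.5%, outside it.
In the 8 Hs578T libraries the order per kilobase was TFE3, TFEB, MITF, with TFEB above MITF by 2.38 ± 0.59 log2 units (SD, n = 8). In the 10 SKBR7 libraries TFEB minus MITF had a mean of -0.37 ± 0.38 (SD, n = 10, over 4 treatments). It was -0.22, -0.23 and -0.39 in the DMSO libraries, below 0 in each, and reached 0.11 in PHA-767491 III.
The distance from TFE3 to MITF was widest in co-treated Hs578T among the libraries that did not stand apart. Per kilobase, TFE3 exceeded MITF by 5.26, 5.42 and 5.21 log2 units in the Hs578T lapatinib libraries and by 6.82, 6.67 and 6.90 in co-treatment. The groups did not overlap, and the MITF share went from 2.27% ± 0.12 (SD, n = 3) to 0.83% ± 0.06 (SD, n = 3). In SKBR7 the distance was 3.62, 3.39 and 3.66 in DMSO, 3.13, 5.34 and 3.43 in lapatinib, 3.74, 3.24 and 4.09 in PHA-767491, and 6.02, 3.64 and 3.58 in co-treatment. Leaving aside lapatinib II and co-treatment I, which stood apart, the co-treated SKBR7 libraries lay above the lapatinib libraries, inside the range of DMSO and below PHA-767491 I and III. No p is given for these differences, which are descriptions within a library. TFE3 exceeded TFEB in Hs578T by 3.41 ± 0.41 under lapatinib alone and by 3.77 ± 0.24 with both drugs (SD, n = 3 each), within the spread.

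**Figure D2:**
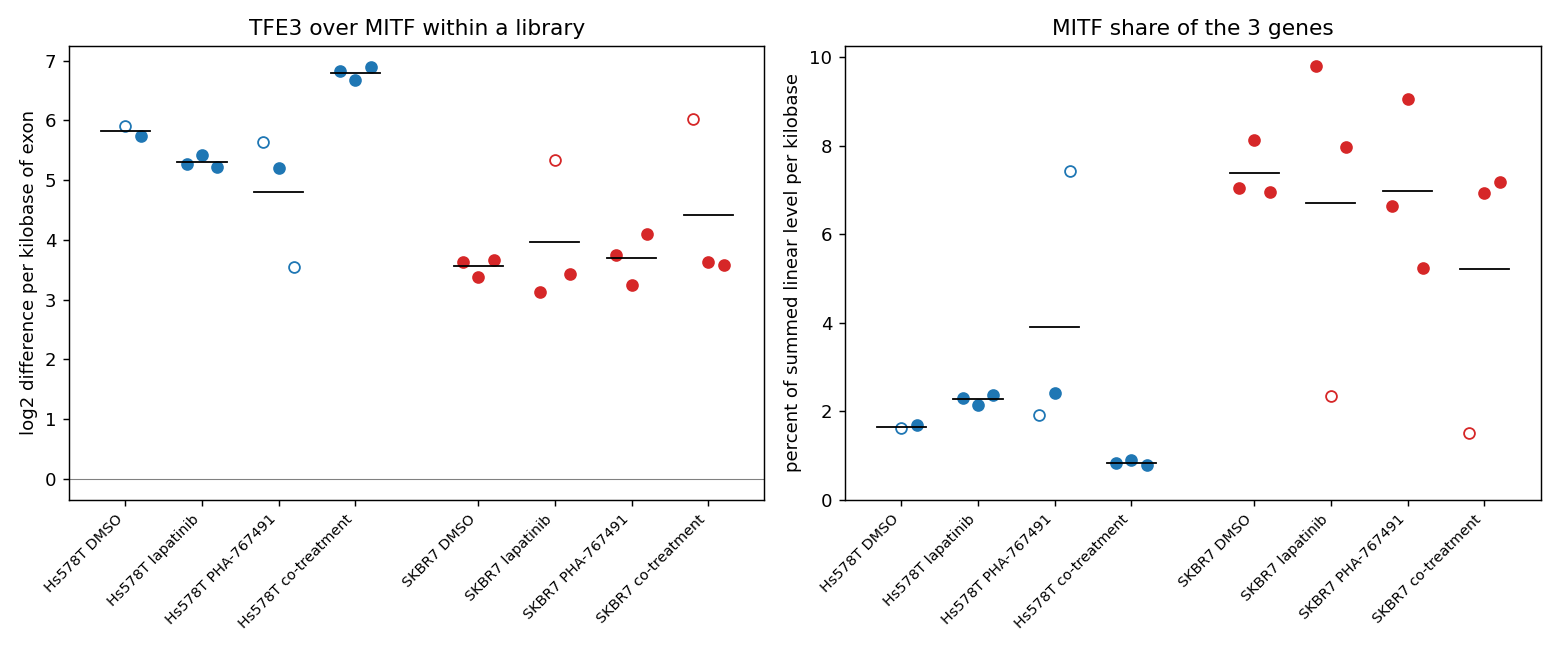
Left, log2 difference of TFE3 over MITF per kilobase of exon in each library, and right, the share of MITF in the summed linear level of the 3 genes (percent, y axis from 0), by line and treatment. Open circles are the libraries that stood apart, lines are group means, and the co-treated Hs578T libraries form the highest group on the left (6.67 to 6.90) and the lowest on the right (0.78% to 0.89%).

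MITF values in Hs578T rest on few reads. In each library the low values fall on steps that many genes share, as counts of whole reads do, and a gene on step 8 from the bottom had at least 8 reads if the lowest step is 1 read or more. MITF was on steps 28, 44 and 26 in the Hs578T lapatinib libraries and on steps 8, 8 and 9 in co-treatment, where 329, 361 and 284 genes had exactly its value. In Hs578T PHA-767491 I it was on step 6, with 298 genes at that value. In SKBR7 it was on steps 298, 357 and 293 in DMSO and on steps 95, 183 and 138 in co-treatment. TFEB in co-treated Hs578T was on steps 55, 69 and 60 and TFE3 on steps 734, 728 and 679. Reads were not recovered above the low steps, so no count test was run, and the counting error of MITF in Hs578T is large.

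Under co-treatment against lapatinib, which asks what PHA-767491 adds to the EGFR inhibitor, MITF was the member with the largest difference in Hs578T and did not pass the test. The mean of MITF was 1.12 ± 0.20 under lapatinib alone and -0.26 ± 0.20 with both drugs (SD, n = 3 each), a log2 difference of -1.39 (SE 0.74, adjusted p = 0.157 by limma). That SE is wider than the SDs of MITF alone would give, since the fit draws it towards genes at a like level. All 3 co-treated libraries were below all 3 lapatinib libraries, which was so for 18.2% of the 16561 genes with values in all 6. With the variance trend over expression level left out, the adjusted p by limma was 0.0306, and ranked anew the difference was -1.38 (SE 0.38, adjusted p = 0.00705 by limma). TFE3 differed by 0.11 (SE 0.14, adjusted p = 0.605 by limma) and TFEB by -0.24 (SE 0.36, adjusted p = 0.678 by limma). In this comparison 18.3% of 21814 genes were called higher and 11.0% lower, and 31.7% and 27.8% of 12200 genes ranked anew. The median over all genes was 0.18. With all 12 Hs578T libraries in the fit, 0 genes were called by limma in it (981 at an unadjusted p under 0.05), so every Hs578T call here rests on the fit of these 6 libraries or of the 18.
In SKBR7 the same comparison gave lower values of all 3 members, none past the test with all 12 libraries. MITF differed by -1.14 (SE 0.66, adjusted p = 0.536 by limma), TFEB by -0.82 (SE 0.70, adjusted p = 0.726 by limma) and TFE3 by -0.70 (SE 0.21, adjusted p = 0.122 by limma). Without co-treatment I alone, where MITF was at 0.77, its difference was -0.22, and without lapatinib II alone it was -1.82. In this comparison 0.182% of 21932 genes were called higher and 0.670% lower. Ranked anew, where 17.8% of 12200 genes were called higher and 19.8% lower, MITF was called lower at -0.89 (SE 0.17, adjusted p = 0.00132 by limma) and TFE3 at -0.57 (SE 0.09, adjusted p = 2.97e-04 by limma), and TFEB was at -0.19 (SE 0.21, adjusted p = 0.497 by limma). The co-treated TFE3 values of 5.98, 6.27 and 6.39 lay below the lapatinib values of 6.70 to 7.10, as did 6.63% of 14315 genes.
Whether the lines differed in this response was tested directly. With all libraries 0 genes were called in this contrast, and across the settings tried up to 1116 were called higher and up to 1405 lower. For TFE3 the effect in Hs578T minus that in SKBR7 was 0.81 (SE 0.45, adjusted p = 0.9998 by limma), and 0.63 ranked anew (SE 0.12, adjusted p = 0.00111 by limma). For MITF it was -0.24 (SE 1.16, adjusted p = 0.9998 by limma), and -0.50 ranked anew (SE 0.31, adjusted p = 0.27 by limma).

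Against PHA-767491, which asks what lapatinib adds, no member passed with all libraries. In Hs578T MITF differed by -1.69 (SE 0.87, adjusted p = 0.803 by limma). Without the 6 libraries that stood apart and ranked anew, the MITF difference was -0.98, where 1 PHA-767491 library remained. TFE3 in Hs578T differed by 0.31 (SE 0.44, adjusted p = 0.911 by limma) and by 0.30 ranked anew. In SKBR7 MITF differed by -1.07 (SE 0.67, adjusted p = 0.601 by limma) and by -0.19 ranked anew (SE 0.16, adjusted p = 0.359 by limma), and by -0.145 without co-treatment I alone. TFE3 differed in SKBR7 by -0.34 (SE 0.20, adjusted p = 0.578 by limma) and was called lower ranked anew at -0.23 (SE 0.08, adjusted p = 0.0455 by limma). TFEB turned sign in both lines, from 0.56 to -0.08 in Hs578T and from -0.87 to 0.17 in SKBR7. Calls in SKBR7 covered 0.0180% of 22253 genes higher and 0.427% lower, and ranked anew 18.6% of 12200 higher and 19.9% lower. In Hs578T 0 genes were called by limma with all libraries (1256 at an unadjusted p under 0.05).
Against DMSO, TFE3 in SKBR7 was the only member to pass in any comparison of treatments with all libraries. Its mean was 7.05 ± 0.07 in DMSO and 6.21 ± 0.21 in co-treatment (SD, n = 3 each), a difference of -0.84 (SE 0.20, adjusted p = 0.0394 by limma), in a comparison where 1.55% of 22521 genes were called lower and the median over all genes was -0.46. After the library medians were subtracted the difference was -0.53 (adjusted p = 0.0659 by limma), and ranked anew -0.66 (SE 0.08, adjusted p = 3.4e-05 by limma). Across the settings tried from 0 to 7635 genes were called lower in SKBR7 co-treatment against DMSO. The call with all libraries was lost in 8 of the 12 fits that each left out 1 library, with differences of -0.93 to -0.72 and adjusted p by limma up to 0.232. MITF in SKBR7 differed from DMSO by -1.70 (SE 0.67, adjusted p = 0.201 by limma) and ranked anew by -0.60 (SE 0.16, adjusted p = 0.00792 by limma), and without co-treatment I alone by -0.78. In Hs578T, where DMSO holds 2 libraries that stood apart, no member passed.
PHA-767491 alone in SKBR7 gave TFE3 values of 6.53 to 6.59, all below the DMSO values of 6.98 to 7.12. The difference was -0.50 (SE 0.20, adjusted p = 1.00 by limma), and -0.43 ranked anew (SE 0.08, adjusted p = 0.00893 by limma). MITF and TFEB also lay below DMSO without overlap under PHA-767491 alone in SKBR7. MITF was at 3.27 to 4.17 against 4.24 to 4.41, and TFEB at 2.905 to 3.31 against 3.75 to 4.04. How many of all genes did so was not counted. With all libraries 0 genes were called in this comparison, so neither passed there. Both passed in at least 1 of the settings tried, with lowest adjusted p by limma of 0.0013 for MITF and 6.4e-04 for TFEB. Across the settings from 0 to 6214 genes were called lower in this comparison. Lapatinib alone moved no member past the test in either line with all libraries, nor in SKBR7 without the 6. In Hs578T 1 DMSO library remained without the 6, too few to judge the effect of lapatinib.

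**Figure D3:**
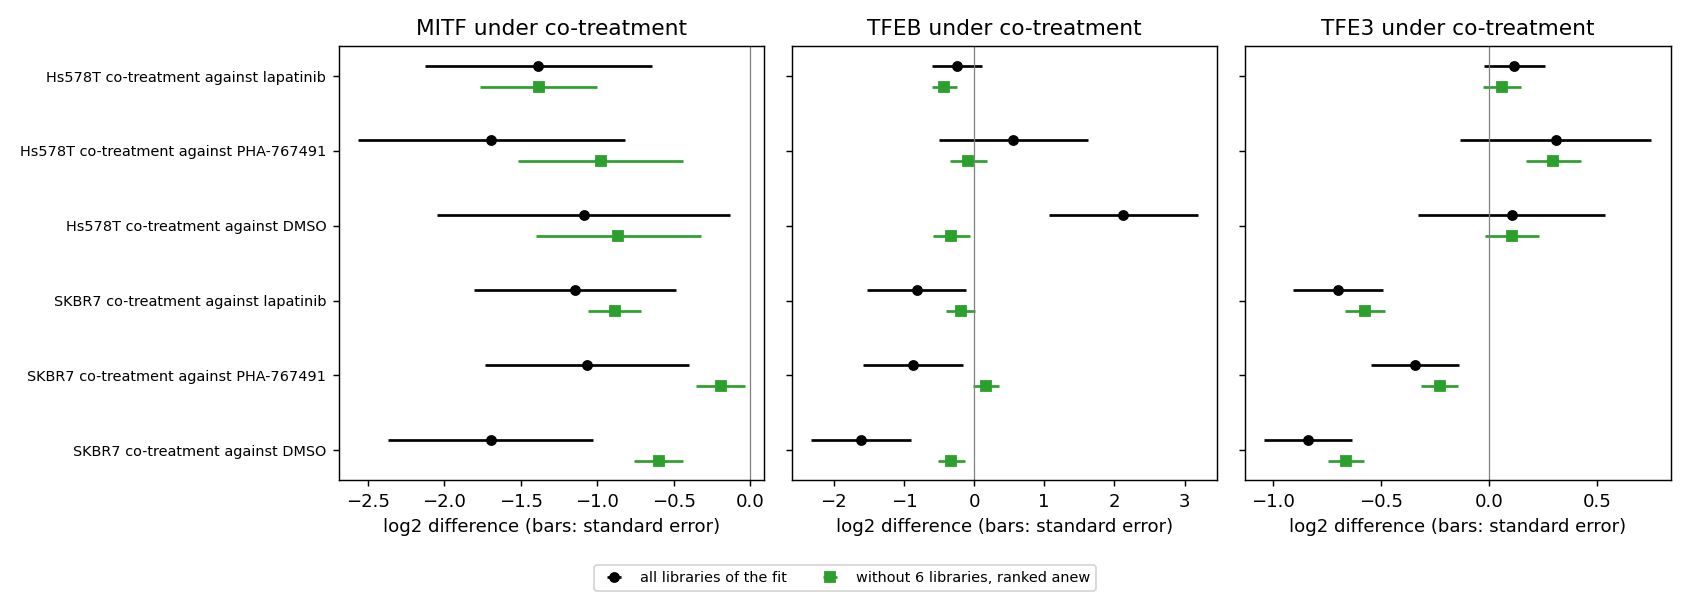
Log2 difference of co-treatment against each other treatment (x axis) for MITF, TFEB and TFE3 in each line, with bars of 1 standard error. Black points use all libraries of the fit and green squares the 18 remaining libraries ranked anew, MITF lies below 0 in each of the 6 comparisons by both, and TFEB changes side in Hs578T against PHA-767491 and DMSO and in SKBR7 against PHA-767491.

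The study linked 6 genes to MITF: BCL2 (an inhibitor of apoptosis), CDC25B (a phosphatase that starts mitosis), DSN1 (a kinetochore protein), PIF1 (a DNA helicase), TDG (a DNA repair glycosylase) and ZNF114 (a zinc finger protein). They were chosen on these same samples, among genes lower under co-treatment, so their direction is not independent evidence. In Hs578T against lapatinib 5 of 6 were lower, beside 11.0% of all genes, with a median difference of -1.35 against 0.18 over all genes. CDC25B was at 8.13, 8.06 and 8.19 in lapatinib and 6.62, 6.62 and 6.50 in co-treatment, a difference of -1.55 (SE 0.10, adjusted p = 2.26e-47 by limma). DSN1 fell by 1.14, TDG by 1.06, PIF1 by 1.75 and BCL2 by 2.22 on the log2 scale. The BCL2 call was lost without any of 4 of the 6 libraries and the PIF1 call without lapatinib I (adjusted p = 0.0576 by limma) or co-treatment III (adjusted p = 0.0608 by limma), and both were lost without the variance trend (adjusted p = 0.132 and 0.109 by limma).
BCL2, like MITF, sat on low steps in Hs578T, at 0.89, -0.49 and -0.46 in lapatinib and -2.36, -0.76 and -3.58 in co-treatment. Its last value was on step 1, the lowest of that library. ZNF114 differed by -0.93 (SE 0.78, adjusted p = 0.414 by limma), with overlapping groups.
In SKBR7 against lapatinib 0 of 6 passed by limma with all libraries (3 at an unadjusted p under 0.05, all lower), beside 0.670% of all genes, and their median was -0.77 against -0.08. Ranked anew 4 of 6 were lower, beside 19.8% of all genes: TDG (-0.69), DSN1 (-0.46), BCL2 (-0.41) and CDC25B (-0.41). CDC25B passed against DMSO in SKBR7 with all libraries, at -0.91 (SE 0.20, adjusted p = 0.0262 by limma). That call was lost in 6 of the 12 fits that each left out 1 library, with -0.74 without co-treatment I (adjusted p = 0.0842 by limma). It was also lost after the library medians were subtracted (-0.60, adjusted p = 0.11 by limma) and without the variance trend (adjusted p = 0.198 by limma), and ranked anew the difference was -0.69 (adjusted p = 1.86e-05 by limma).

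**Figure D4:**
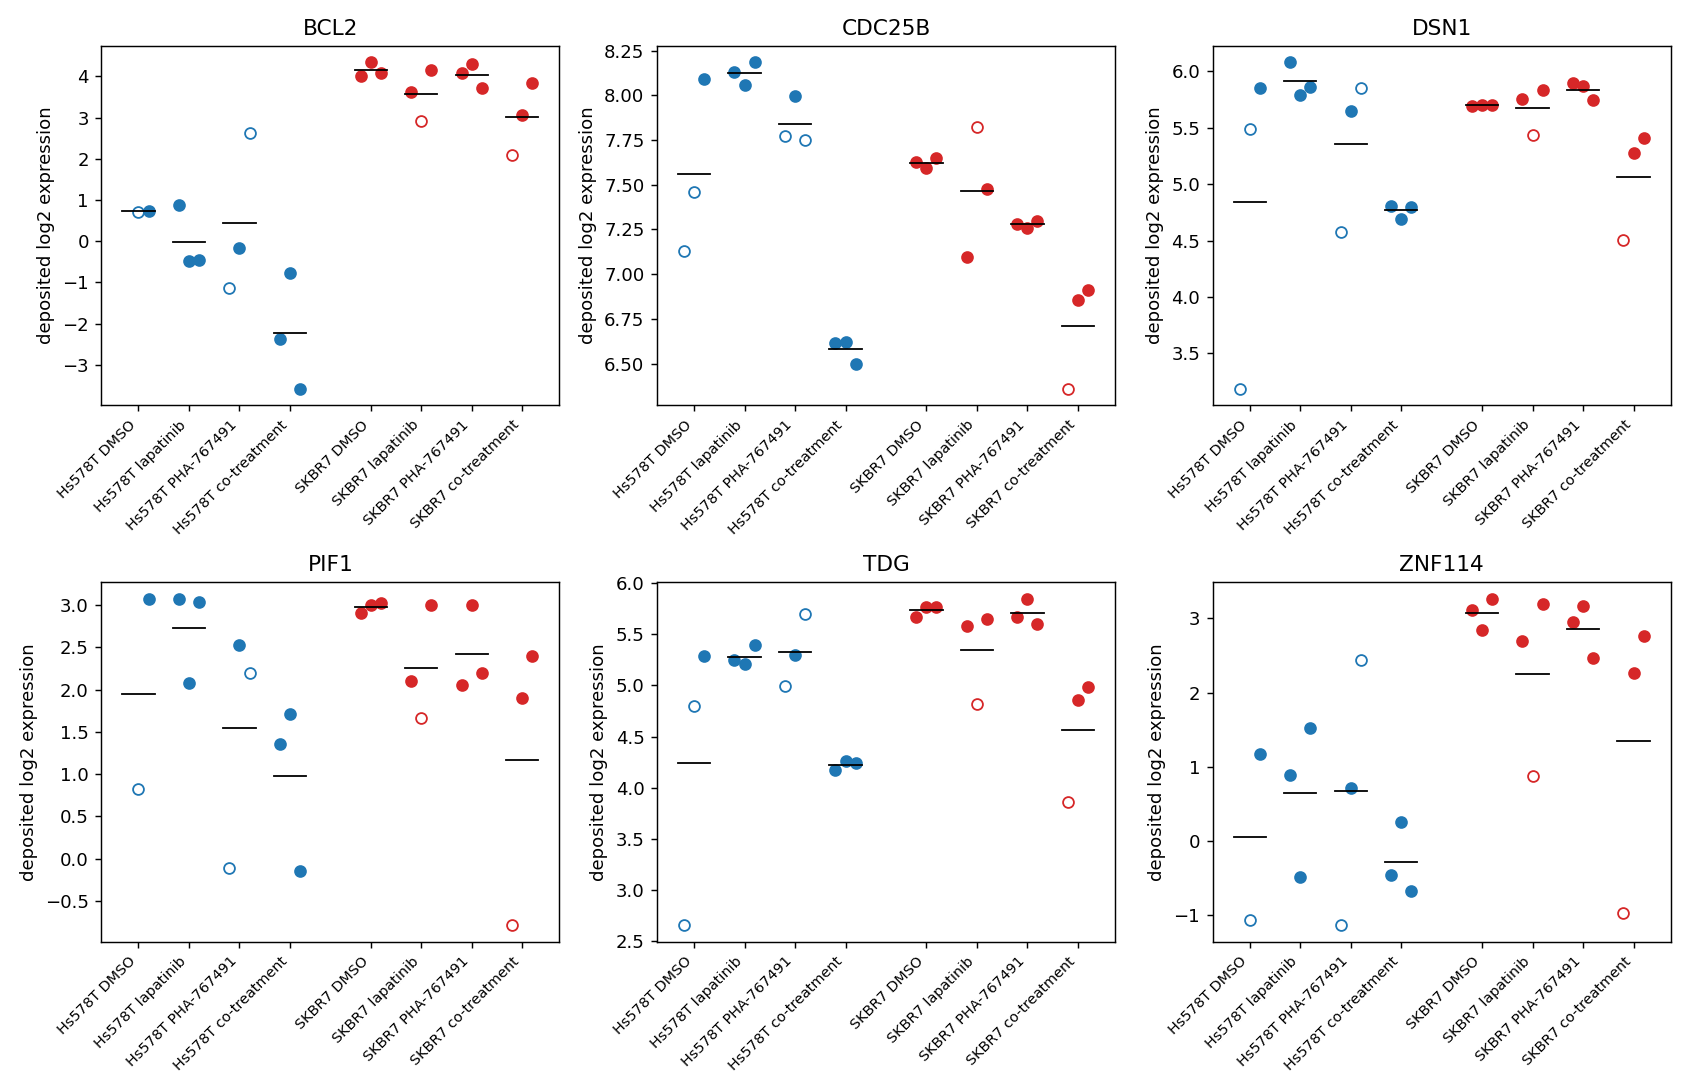
Deposited log2 expression (y axis, a separate scale for each gene) of the 6 genes the study linked to MITF, in each library by line and treatment. Open circles are the libraries that stood apart, lines are group means, and CDC25B in Hs578T runs from 8.06 to 8.19 in lapatinib and from 6.50 to 6.62 in co-treatment.

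Among the lysosomal genes known as targets of TFEB and TFE3, most hydrolases rose in Hs578T under co-treatment against lapatinib. Of the 37 lysosomal hydrolases, the enzymes that break down proteins, lipids and sugars in the lysosome, 34 were higher and 0 lower, beside 18.3% and 11.0% of all genes, with a median difference of 0.50 against 0.18 over all genes. ARSA, which removes sulphate from sulphatides, rose by 1.13 (SE 0.18), IDUA, which cuts glycosaminoglycans, by 1.09 (SE 0.26), HEXA, a subunit of hexosaminidase, by 1.02 (SE 0.13) and the protease gene CTSF by 0.95 (SE 0.135). ARSA had SDs of 0.69 in lapatinib and 0.165 in co-treatment (n = 3 each). Its SE was narrower than that spread alone would give. After subtraction of the library medians 30 of 37 were higher and ranked anew 33, but without the variance trend 9, and 0 by limma with all 12 Hs578T libraries (1 at an unadjusted p under 0.05). TFE3 and TFEB did not pass in the same comparison.
Of the 17 genes listed as lysosomal membrane genes 9 were higher and 0 lower, beside 18.3% and 11.0% of all genes. NPC2, which the list holds although its protein is soluble in the lumen, where it carries cholesterol, rose by 0.54, and MCOLN1, the calcium channel whose promoter windows are printed above, by 0.54 on the log2 scale. OSTM1 rose by 0.41, a call lost without co-treatment I (adjusted p = 0.107 by limma) or III (adjusted p = 0.0639 by limma). Of the 21 subunits of the V-ATPase, the pump that acidifies the lysosome, 10 were higher and 2 lower, with TCIRG1 at 1.01, ATP6V0E2 at 0.95, ATP6AP2 at 0.66 and ATP6V1B2 at -0.70. The ATP6V0E2 call was lost without co-treatment I (adjusted p = 0.0529 by limma).
Of the 22 autophagy genes tested 11 were higher and 2 lower, and the same shares of all genes apply. ATG14, a subunit of the lipid kinase complex that starts autophagosomes, rose by 0.80. GABARAP at 0.93 and MAP1LC3A at 0.72, both proteins of the autophagosome membrane, passed with all 6 libraries but not without lapatinib II (0.58 and 0.36, adjusted p = 0.06 and 0.147 by limma). GABARAP also lost its call without co-treatment I (adjusted p = 0.0721 by limma) and MAP1LC3A without co-treatment II (adjusted p = 0.111 by limma). SQSTM1, the autophagy receptor p62, fell by 0.51 in Hs578T (SE 0.08) and by 1.46 in SKBR7 (SE 0.15, adjusted p = 1.84e-05 by limma). Without the variance trend both SQSTM1 calls were lost, with adjusted p by limma of 0.0751 and 0.255, as were those of ARSA, IDUA, NPC2, MCOLN1, OSTM1, ATP6V0E2, GABARAP and MAP1LC3A in Hs578T, at 0.0703 to 0.229.
In SKBR7 against lapatinib SQSTM1 was the only gene of these 4 lists to pass with all libraries, and it was at -1.15 ranked anew. The hydrolases had 0 of 37 called by limma (6 at an unadjusted p under 0.05, all higher), with a median of 0.31 against -0.08 over all genes. Ranked anew 23 of 37 were higher and 0 lower against lapatinib, beside 17.8% and 19.8% of all genes, and 28 and 0 against PHA-767491, beside 18.6% and 19.9%. In Hs578T against PHA-767491 with all libraries 0 genes were called by limma. There 3 of the 37 hydrolases had an unadjusted p under 0.05, all higher. Ranked anew, 1 PHA-767491 library remained in Hs578T, so no count is given. ARSA was at 1.09 and HEXA at 0.38 in SKBR7 against lapatinib ranked anew, both called higher.

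**Figure D5:**
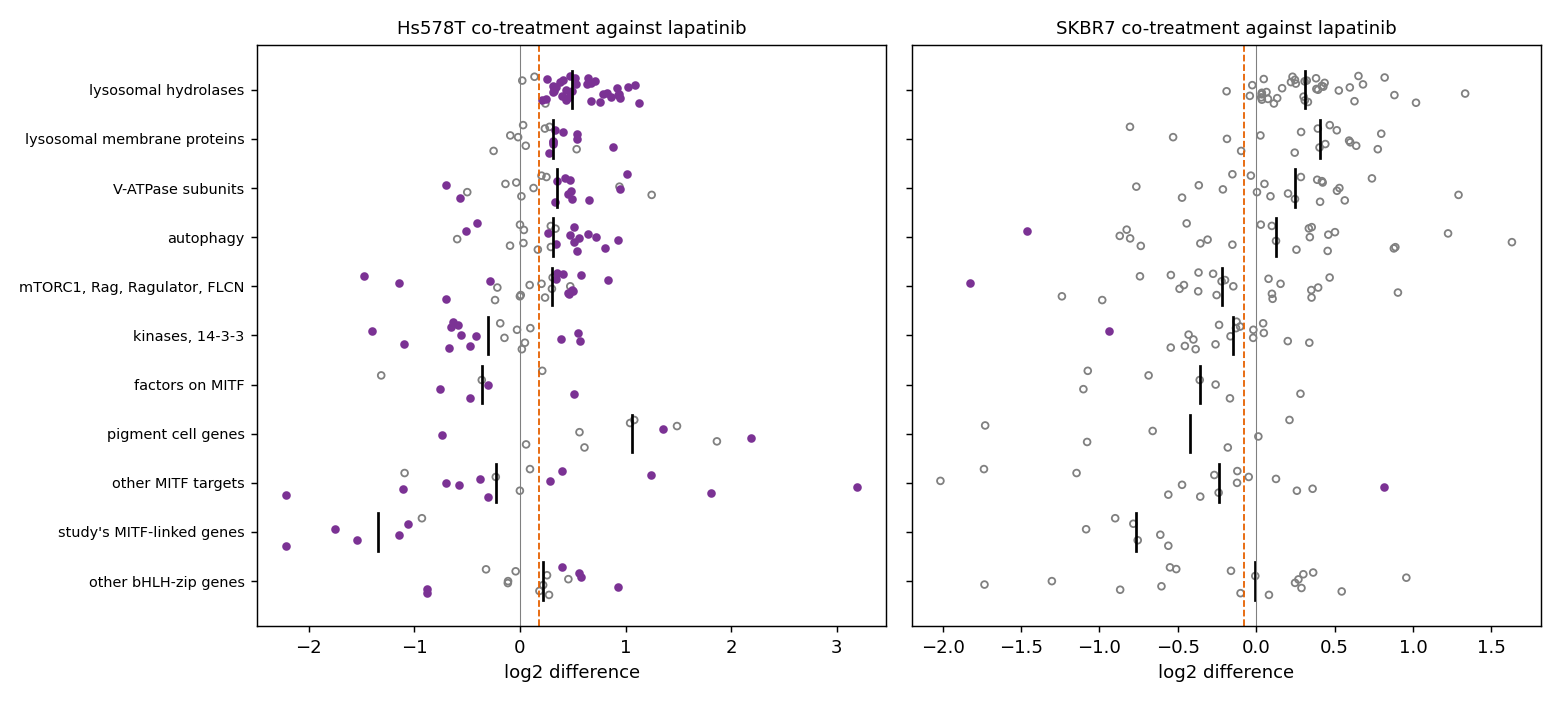
Log2 difference of co-treatment against lapatinib (x axis) for each gene of 11 lists in Hs578T (left) and SKBR7 (right). Filled points passed the limma test over all genes, short black lines are list medians, the dashed line is the median over all genes (0.18 and -0.08), and the hydrolase medians are 0.50 and 0.31.

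Of the 23 genes of mTORC1, the Rag GTPases, Ragulator and FLCN, 9 were higher and 4 lower in Hs578T against lapatinib, beside 18.3% and 11.0% of all genes. RPTOR, the subunit by which mTORC1 recognises its substrates, fell by 1.14 in Hs578T (SE 0.12) and by 1.83 in SKBR7 (SE 0.35, adjusted p = 0.00967 by limma), where the call was lost without lapatinib III (-1.73, adjusted p = 0.0515 by limma) and the difference was -1.14 ranked anew. Against PHA-767491 in SKBR7 RPTOR fell by 1.76 (adjusted p = 0.0221 by limma), a call lost without co-treatment I (-1.24, adjusted p = 0.062 by limma) and without each of the PHA-767491 libraries, and ranked anew it was at -1.24. Without the variance trend the SKBR7 calls of RPTOR were lost against lapatinib (adjusted p = 0.265 by limma) and PHA-767491 (adjusted p = 0.413 by limma). SLC38A9, the lysosomal arginine sensor, fell by 1.47 and FLCN by 0.70 in Hs578T, and RRAGB, a Rag GTPase, rose by 0.84, a call that 3 of the 6 libraries each removed when left out. In SKBR7 RPTOR was the only gene of this list to pass with all libraries.
Of the 18 kinases, phosphatases and 14-3-3 genes 3 were higher and 9 lower in Hs578T against lapatinib, beside 18.3% and 11.0% of all genes, so the count higher was near the background. XPO1, the exporter that carries these factors out of the nucleus, fell by 1.40 in Hs578T (SE 0.10) and by 0.94 in SKBR7 (SE 0.21, adjusted p = 0.0345 by limma), and by 1.27 in SKBR7 against PHA-767491 (SE 0.21, adjusted p = 0.00669 by limma). The SKBR7 call against lapatinib was lost in 7 of the 12 fits that each left out 1 library, and the difference was -1.13 ranked anew (adjusted p = 8.42e-07 by limma). The call against PHA-767491 was lost without co-treatment I (adjusted p = 0.0764 by limma) or PHA-767491 II (adjusted p = 0.077 by limma), and ranked anew that difference was -1.14. Without the variance trend XPO1 did not pass in SKBR7 against lapatinib (adjusted p = 0.369 by limma) or PHA-767491 (adjusted p = 0.413 by limma). MAP4K3, a kinase that acts on TFEB when amino acids are present, fell by 1.10, GSK3A by 0.67 and the 14-3-3 gene YWHAG by 0.65 in Hs578T. The calls of FLCN, RRAGB, GSK3A and YWHAG in Hs578T were lost without the variance trend, with adjusted p by limma of 0.0572 to 0.215.

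Of the 10 factors known to act on the MITF gene in pigment cells 7 could be tested in Hs578T against lapatinib, and 1 was higher and 3 lower, beside 18.3% and 11.0% of all genes. CREB1, which binds the sequence in capitals in the melanocyte promoter, was at 5.07 in lapatinib and 4.31 in co-treatment as group means, a difference of -0.76 (SE 0.18). ATF2 fell by 0.47 and CTNNB1, the Wnt effector beta-catenin, by 0.31. The ATF2 call was lost without any of 3 libraries and the CTNNB1 call without co-treatment II (adjusted p = 0.0509 by limma). Without the variance trend the calls of CREB1, ATF2 and CTNNB1 were lost, with adjusted p by limma of 0.0551 to 0.18.
Neither line had the defining profile of a pigment cell. TYR, the rate-limiting enzyme of melanin synthesis, was listed in 0 Hs578T libraries and 1 SKBR7 library, and DCT in 4 and 0. TYRP1 had a median of 0.94 in Hs578T and 0.02 in SKBR7. Of the 10 pigment genes tested in Hs578T against lapatinib 2 were higher and 1 lower, close to the 18.3% and 11.0% of all genes. PMEL, a melanosome fibril protein, was at 1.36 (SE 0.37) and MLPH, a melanosome transport adaptor also made in epithelia, at -0.74 (SE 0.14). MLANA passed as higher, but no fold is given. Its lapatinib values of -3.54 to -2.42 lay near the lowest of the table, and the call was lost without any of 5 libraries. Without the variance trend the calls of PMEL (adjusted p = 0.0525 by limma) and MLPH (adjusted p = 0.0742 by limma) were lost.
Of the 15 targets of MITF outside pigment genes tested in Hs578T against lapatinib 5 were higher and 6 lower, beside 18.3% and 11.0% of all genes. CDKN2A was not listed in lapatinib I, was at -2.94 and -3.41 in the other lapatinib libraries, near the lowest values of the table, and at 0.099, 0.26 and -0.31 in co-treatment, so it passed as higher but no fold is given. BCL2A1 was 1.81 higher and MREG rose by 1.24, while BCL2 fell as above. The BCL2A1 call was lost without any of 4 libraries and the MREG call without any of 5, and both without the variance trend (adjusted p = 0.151 and 0.107 by limma). In SKBR7 the cell cycle inhibitor gene CDKN1A was the only one of these to pass against lapatinib, 0.81 higher (SE 0.15), and it was -1.11 in Hs578T (SE 0.16). Ranked anew it was at 0.85 in SKBR7 and -1.17 in Hs578T. The difference between the lines was -1.92 (SE 0.95, adjusted p = 0.9998 by limma) with all libraries and -2.02 ranked anew (SE 0.14, adjusted p = 7.05e-08 by limma). Across the settings tried up to 1405 genes were called lower in that contrast. CDKN1A was outside the rule for named genes and was chosen after its values were seen.

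The genes most like each member were found by Pearson correlation over the libraries that list it, after centring each library on its median and each line on its mean. These correlations share the libraries that stood apart, so they are given with and without those and with no p. For MITF (23 libraries, 12199 other genes) the closest was SLC16A6, a monocarboxylate transporter, at r = 0.94 and at 0.86 in the 18 libraries that did not stand apart. Next came RP11-196G18.22 (0.90), RP11-21L23.2 (0.89), ESCO1 (0.89) and FAM49A (0.88), which were at 0.67 to 0.79 in the 18. For MITF the relatives were lower, with TFEB at r = 0.48 and TFE3 at 0.28, and at 0.50 and 0.26 in the 18.
For TFEB (24 libraries, 8916 other genes) the closest were ZNF212 (0.95), RABGGTA (0.95), TSC22D3 (0.94), PRR19 (0.92) and WNT10B (0.92). In the 18 libraries ZNF212 was at 0.51, RABGGTA at 0.69, TSC22D3 at 0.48, PRR19 at 0.86 and WNT10B at 0.32. For TFE3 the closest included UBQLN4 (0.94), MARCHF4 (0.93), CDK16 (0.92) and S100A16 (0.92). In the 18 libraries UBQLN4 was at 0.57, MARCHF4 at 0.81, CDK16 at 0.44 and S100A16 at 0.29. TFEB and TFE3 had r = -0.38 over all 24 and 0.43 over the 18, so the sign of their relation rested on the libraries that stood apart.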

How the data were processed

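RNA-seq libraries of Hs578T and SKBR7 cells were counted per gene by the authors with featureCounts 1.4.6 on GRCh38. The methods and the labels name different aligners, so the aligner is not settled here. The deposited log2 values are, per the authors, counts scaled by TMM (edgeR) and then quantile normalised, with no value where a library lists no gene. Each library was taken as deposited, 36 lines with a repeated identifier were left out, and 36481 genes remained. Groups came from the labels.

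Differences were tested with limma 3.58.1 (R 4.3.3, moderated with a variance trend, two-sided, Benjamini-Hochberg over all genes tested, threshold 0.05) on the log2 values, with 4 group means per line and genes listed in at least 3 libraries. Hs578T co-treatment against lapatinib used its 6 libraries, and contrasts between lines all 24. "Ranked anew" is quantile normalisation of the 18 libraries that did not stand apart over the 12200 genes listed in all but Hs578T DMSO I. The fit was tested on simulated data. Members and gene lists were chosen with earlier results of these data known. Named genes are the members, TFEC, the 6 genes the study linked to MITF, the 5 genes most correlated with each member, and up to 4 of each list that passed against lapatinib or PHA-767491, largest difference first. A few genes that this rule names are not reported here. Exon lengths came from GENCODE 44, and sequences from RefSeq. Total counts were not analysed here, so the effect of depth on precision is unknown beyond the genes listed and the steps of low values. Alternatives were another filter on low values, a replicate block, other sets of libraries, centring, no variance trend, array weights and each library left out. The file of group averages was not used.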

Additional observations from a re-analysis of the deposited data

How the results depend on the processing

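All differences here are log2 differences by limma, and the cause of each change was not tested. Of the alternatives to results that answer a comparison, 529 stayed the same, 23 turned sign, 21 newly passed and 15 lost a call, and 2 counts moved by over 1.5 times. For tests, the same meant direction and side of the threshold, and results that never passed are among the 529. For TFE3 minus MITF it meant a group mean within the SD, and for hydrolases a count within 1.5 times. The 37 hydrolases, with 34 higher in Hs578T against lapatinib, had 0 higher with all 12 libraries of the line and 9 without the variance trend. Without the variance trend MITF in Hs578T against lapatinib was -1.39 and passed, and TFE3 in SKBR7 co-treatment against DMSO was -0.84 and no longer passed.

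Without the 6 libraries and ranked anew, MITF passed at -1.38 in Hs578T against lapatinib, -0.89 in SKBR7 against lapatinib and -0.60 in SKBR7 co-treatment against DMSO. MITF in SKBR7 lapatinib against DMSO turned to 0.29. TFE3 passed at -0.57 and -0.23 in SKBR7 co-treatment against lapatinib and PHA-767491, passed at 0.63 for the line difference, and turned to 0.046 in Hs578T lapatinib against DMSO. TFEB passed at -0.58 between lines and turned to -0.32, -0.08, 0.17 and -0.23 in Hs578T co-treatment against DMSO and PHA-767491, SKBR7 co-treatment against PHA-767491 and the line difference, and to -0.24 in Hs578T PHA-767491 against DMSO. With the 6 left out, Hs578T kept 1 DMSO and 1 PHA-767491 library, so that last difference sets 1 library against 1. With the 6 left out and values as deposited, an alternative added after seeing the data, MITF in SKBR7 co-treatment passed at -0.90 against lapatinib and -0.78 against DMSO, and MITF in SKBR7 lapatinib against DMSO was 0.12. TFE3 passed at -0.57 in SKBR7 against lapatinib and 0.69 for the line difference, and was 0.023 in Hs578T lapatinib against DMSO. TFEB turned to -0.24, -0.21, 0.21, -0.12 and -0.025 in the same 5 comparisons as before.

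With array weights MITF passed at -0.86 and TFEB at -0.55 in SKBR7 co-treatment against DMSO, TFEB at 1.82 in Hs578T co-treatment against DMSO, and TFE3 at -0.26 and -0.59 in SKBR7 co-treatment against PHA-767491 and lapatinib. Signs turned for TFEB in co-treatment against PHA-767491 (-0.10 in Hs578T, 0.32 in SKBR7), for TFE3 in Hs578T co-treatment against DMSO (-0.31) and for MITF in SKBR7 lapatinib against DMSO (0.023). Centred on library medians, TFE3 in SKBR7 co-treatment was -0.62 against lapatinib and passed, -0.53 against DMSO and no longer passed, and 0.091 for lapatinib against DMSO, and in Hs578T co-treatment against DMSO -0.94. With genes listed in every library, TFE3 in SKBR7 against lapatinib (-0.70) passed.

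Leaving out 1 library at a time gave these ranges. MITF ran from -3.31 to -2.27 between lines under lapatinib, -1.16 to 0.43 for the line difference, -0.91 to 0.12 in SKBR7 lapatinib against DMSO and -0.35 to 1.37 in Hs578T PHA-767491 against DMSO. For MITF in co-treatment the ranges were -1.82 to -0.22, -1.57 to -0.145 and -2.20 to -0.78 in SKBR7 against lapatinib, PHA-767491 and DMSO, the smallest of each without SKBR7 co-treatment I, and -2.46 to -0.74 in Hs578T against PHA-767491. TFE3 ran from -0.93 to -0.72 and -0.81 to -0.58 in SKBR7 co-treatment against DMSO and lapatinib. In Hs578T it ran from -0.12 to 0.34 and -0.04 to 0.64 for co-treatment against DMSO and PHA-767491, -0.54 to 0.14 for PHA-767491 against DMSO and -0.23 to 0.23 for lapatinib against DMSO. TFEB ran from -0.61 to 0.18 between lines, 0.88 to 3.31 and -0.17 to 0.94 in Hs578T co-treatment against DMSO and PHA-767491, -1.44 to 0.21 and -1.38 to 0.26 in SKBR7 co-treatment against PHA-767491 and lapatinib, and -0.50 to 1.14 for the line difference.

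Replicate numbers showed no steady pairing: deviations of same-numbered libraries correlated between -0.40 and 0.30 in Hs578T and between -0.46 and 0.62 in SKBR7. The libraries that stood apart were included, so these correlations cannot settle whether replicates were paired. With the replicate block no call on a member changed (MITF in Hs578T against lapatinib -1.39, TFE3 in SKBR7 co-treatment against DMSO -0.84), and 28 hydrolases were higher. The Hs578T calls against lapatinib of BCL2, OSTM1, RRAGB, ATF2, MLANA, BCL2A1 and MREG were not made with the block (adjusted p by limma of 0.0515 to 0.154).

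Counts over all genes moved widely. In Hs578T against lapatinib 3999 higher and 2403 lower became 0 and 0 with all 12 libraries and up to 5043 and 3387 in other settings. In SKBR7 against lapatinib 40 and 147 ranged from 2 to 2170 and from 0 to 2418, and against PHA-767491 4 and 95 from 0 to 2735 and from 0 to 4531. The low steps of MITF in Hs578T limit what any setting can show there.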

Other observations

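Other basic helix-loop-helix zipper genes, which bind related E-boxes, had 4 of 15 tested members higher and 2 lower in Hs578T under co-treatment against lapatinib, near the 18.3% and 11.0% of all genes. MNT, a repressor partner of MAX, rose by 0.93 (SE 0.23) and MYC by 0.57 (SE 0.12). MLXIP, a glucose-responsive factor, fell by 0.88 (SE 0.15) and MGA, a MAX partner, by 0.88 (SE 0.21). The MYC and MGA calls were lost without the variance trend (adjusted p = 0.0744 and 0.061 by limma). In SKBR7 against lapatinib 0 of 17 passed by limma with all libraries (1 at an unadjusted p under 0.05), and MYC was at 0.96 (SE 0.27, adjusted p = 0.103 by limma) there, at 0.65 ranked anew (adjusted p = 3.25e-04 by limma).

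TFEC, which is known mainly from macrophages, was on steps 1 to 14 of the low values in each library that listed it, and its highest value was 0.33 in SKBR7 DMSO II.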
